A study of Mus musculus with 2 samples.

Results

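The miRNA genes Mir22, Mir21a, Mir221, Mir222, Mir210 and Mir31, known from injury and stress responses, were measured in the newborn mouse neural tube. They were chosen by gene symbol, matched through the Ensembl identifier, and are 6 of 1973 miRNA genes in the deposited tables. Small RNA (under 30 bases) was sequenced from the neural tubes of 2 B6NCrl pups of 1 dam on postnatal day 0, 1 library per pup, with no treatment or injury named in the labels. All samples therefore form 1 group, and the values give levels in this tissue and the difference between pup 1 and pup 2. Sex was not recorded. Without an injured sample, the label of the genes as injury and stress miRNAs is background that these data do not check.

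A miRNA is cut from a hairpin precursor and guides Argonaute to messenger RNAs that pair with its seed, the bases near its 5′ end, which lowers the output of those messengers. The members have different textbook roles. miR-21 represses Pdcd4, a gene that promotes cell death, and rises in reactive glia and in fibrosis. miR-221 and miR-222 repress the cell cycle inhibitor Cdkn1b and the receptor Kit, and are known from endothelium, smooth muscle and injured nerve. miR-210 is induced by hypoxia-inducible factor and represses iron-sulfur cluster assembly genes. miR-22 is made in many tissues and studied in heart growth, and miR-31 is known from skin and wound repair.

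The mature miRNAs below carry the seed comparison that groups the members. They come from RefSeq (GRCm38.p6), which listed all 6 genes. The arm of each hairpin that is usually the abundant one was chosen from general knowledge, because the deposited counts are per precursor and do not tell the arms apart. Letters run 5′ to 3′, and capitals mark the seed, bases 2 to 8.
mmu-miR-22-3p: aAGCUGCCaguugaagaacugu
mmu-miR-21a-5p: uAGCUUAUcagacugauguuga
mmu-miR-221-3p: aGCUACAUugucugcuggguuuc
mmu-miR-222-3p: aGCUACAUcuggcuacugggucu
mmu-miR-210-3p: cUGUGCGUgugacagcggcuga
mmu-miR-31-5p: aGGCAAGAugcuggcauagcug
The 6 miRNAs fell into 5 seed groups. Only miR-221-3p and miR-222-3p among them had the same seed, GCUACAU, and were identical over the first 8 bases. Beyond the seed the pair diverged, so that 11 of 23 positions (47.8%) were the same when read from the 5′ end without gaps. The seeds of miR-22-3p, miR-210-3p and miR-31-5p occurred in no other mature mouse miRNA of the RefSeq table.

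The mouse miRNAs miR-21c and miR-1928 also had a seed of this set and are shown because their reads could be confused with a member's.
mmu-miR-21c: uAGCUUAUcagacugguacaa
mmu-miR-1928: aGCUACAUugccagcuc
miR-21c had the same first 15 bases as miR-21a-5p, and miR-1928 the same first 10 bases as miR-221-3p. Mir21c and Mir1928 had 0 counts in both pups, as did Mir21b, another relative of Mir21a. A count of 0 allows up to 3 counts, which is 0.933 CPM in pup 1 and 0.820 CPM in pup 2 (CPM is counts per 1000000 counts on the genes' own strand). Mir21a therefore held 100% of the counts of its seed group. Within the GCUACAU group Mir221 held 65.2% and Mir222 34.8% of the counts of both pups.

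The precursors of Mir221 and Mir222 are shown because the genes lie next to each other and share a seed on hairpins of different sequence (RefSeq, GRCm38.p6, capitals mark the mature arms listed there).
Mir221 hairpin: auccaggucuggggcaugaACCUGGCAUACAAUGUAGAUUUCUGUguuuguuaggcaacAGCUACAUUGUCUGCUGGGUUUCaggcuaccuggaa
Mir222 hairpin: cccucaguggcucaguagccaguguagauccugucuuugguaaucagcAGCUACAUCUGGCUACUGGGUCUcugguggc
Mir221 lies on chromosome X, 19146294 to 19146388, and Mir222 at 19146893 to 19146971, both on the minus strand of mm10 with 504 bases between them. Neither overlapped another annotated gene in GENCODE M21. Both hairpins listed the seed-sharing miRNA on the 3′ arm. For Mir222 RefSeq listed 1 mature arm.

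The other members lie apart from each other. Mir22 lies on chromosome 11, 75463716 to 75463810 on the plus strand, inside exon 2 of the noncoding host gene Mir22hg and of a noncoding transcript of Tlcd2. Mir21a lies on chromosome 11, 86584067 to 86584158 on the minus strand, inside exon 12 of Vmp1, in the untranslated part of that autophagy gene's last exon. Mir31 lies on chromosome 4, 88910557 to 88910662 on the minus strand, inside exon 3 of the long noncoding RNA gene AL805899.1. Mir210 lies on chromosome 7, 141221384 to 141221493 on the minus strand, and overlapped no other gene. Its hairpin had 69.1% G and C, a share reached by 8 of 305 detected genes with a RefSeq hairpin, whose median was 50%. The Mir21a hairpin had 45.7%, the lowest of the 6.

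All 6 members were detected (at least 10 counts in both pups), against 17.8% of all miRNA genes. The libraries held 3216453 counts on the genes' own strand in pup 1 and 3660693 in pup 2. Multimapping reads, which the deposited tables count to no gene, were 35.7% of all reads in pup 1 and 35.4% in pup 2. The longest stretch that a member's precursor shared with another annotated mouse miRNA precursor was 15 bases, between Mir21a and Mir21c, and 12 bases for each of the other 5, so full-length reads of these miRNAs were distinct from those of other miRNA genes. Matches elsewhere in the genome were not tested. On the opposite strand the 6 genes had 1 count in all, at Mir21a in pup 2.

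Mir22 and Mir21a made up most of the signal. Together the 6 genes held 1.23% of the own-strand counts in pup 1 and 1.40% in pup 2 (exact 95% binomial intervals 1.22 to 1.24% and 1.39 to 1.42%), a mean of 1.32% ± 0.124 (SD, n = 2). Intervals cover counting error only. No molecular identifiers are stated, so copies of the same molecule would be counted as separate reads and the intervals can be too narrow. Mir22 alone gave 56.4% of the members' counts in each pup, and Mir21a 34.8% and 35.6%. The remaining 4 genes together held 0.110% ± 0.0018 of all own-strand counts (SD, n = 2).

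Mir22 had 22274 counts in pup 1 and 28990 in pup 2, or 6925 and 7919 CPM. Its mean of 7422 CPM ± 703 (SD, n = 2) ranked 22 among the 1973 genes. Mir21a had 13738 and 18313 counts, or 4271 and 5003 CPM. Its mean of 4637 CPM ± 517 (SD, n = 2) ranked 35. The lower of the Mir22 values, in pup 1, lay above the higher of the Mir21a values, in pup 2, so the ranges did not overlap.

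The GCUACAU pair stood an order of magnitude lower. Mir221 had 1465 counts in pup 1 and 1557 in pup 2, or 455 and 425 CPM, with a mean of 440 CPM ± 21.3 (SD, n = 2) at rank 129. Mir222 had 699 and 911 counts, or 217 and 249 CPM, with a mean of 233 CPM ± 22.3 (SD, n = 2) at rank 164. Mir221 was above Mir222 in both pups, 2.10-fold in pup 1 and 1.71-fold in pup 2. From pup 1 to pup 2 the Mir221 value was lower and the Mir222 value higher, and their sum was 0.0673% of own-strand counts in pup 1 and 0.0674% in pup 2. These near-equal sums hold for scaling to the total, and the other scalings used below shift all ratios between pups.

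Mir210, the hypoxia-induced gene, had 808 counts in pup 1 and 1062 in pup 2, or 251 and 290 CPM. Its mean was 271 CPM ± 27.5 (SD, n = 2), at rank 155. Mir31 had 532 and 552 counts, or 165 and 151 CPM, with a mean of 158 CPM ± 10.3 (SD, n = 2) at rank 188, the lowest of the 6. The CPM ranges of Mir210 and Mir31 did not overlap, whereas the lower Mir210 value, in pup 1, lay just above the higher Mir222 value, in pup 2.

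**Figure D1:**
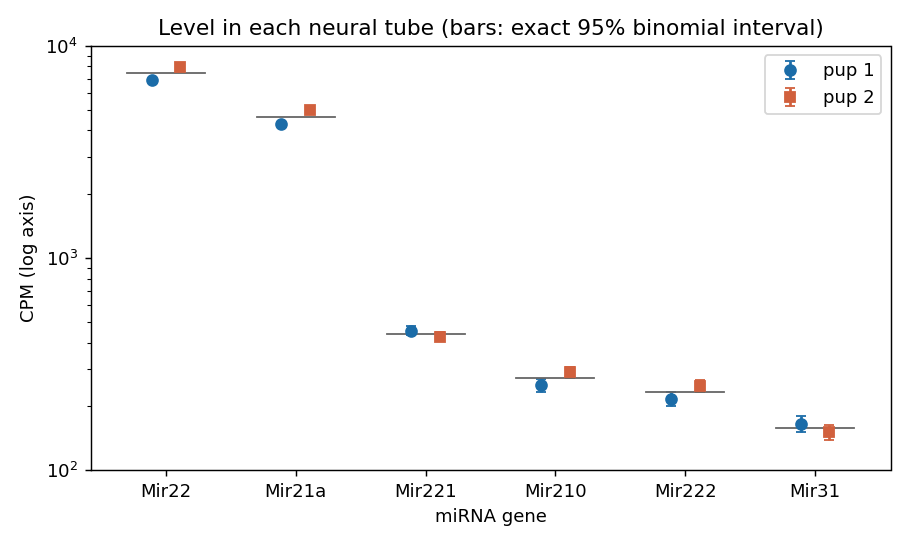
CPM on a log axis for each member in pup 1 (circles) and pup 2 (squares), with exact 95% binomial intervals for counting error and a grey line at the mean of both pups. Mir22 and Mir21a stand at 4271 CPM and above and the other 4 genes between 151 and 455 CPM.

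The order of the levels was tested against the spread between pups. For each pair of members the difference of mean log2(CPM + 1) was set against a 95% bound from the SD between pups, pooled over detected genes of like abundance in 4 classes (SD 0.16 in the top class, 0.21 and 0.23 in the next 2). Counts were not divided by length, and the members' mature miRNAs printed above are 22 or 23 bases long. Of the 15 pairs, 14 differed by more than this bound, which was set for each pair with no adjustment over the 15. These bounds hold differences between the pups and no bias that both libraries share.

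Down the order, Mir22 lay 1.60-fold above Mir21a (95% bounds 1.28 to 2.00). Mir21a lay 10.5-fold above Mir221 (8.11 to 13.6), the widest step. Mir221 lay 1.63-fold above Mir210 (1.22 to 2.17). The members thus formed by level an upper group of 2 genes, Mir22 and Mir21a, and a lower group of 4.

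Mir210 and Mir222 were the neighbours that did not differ beyond this bound, at 1.16-fold with bounds from 0.871 to 1.54. Within each pup Mir210 lay above Mir222, 1.16-fold in pup 1 and 1.17-fold in pup 2. The bound treats the genes of a pair as independent and does not use their pairing within a pup. Mir222 lay 1.47-fold above Mir31 (1.09 to 1.99), the called pair nearest its bound. Mir221 lay 1.89-fold above its seed partner Mir222 (1.42 to 2.52).

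**Figure D2:**
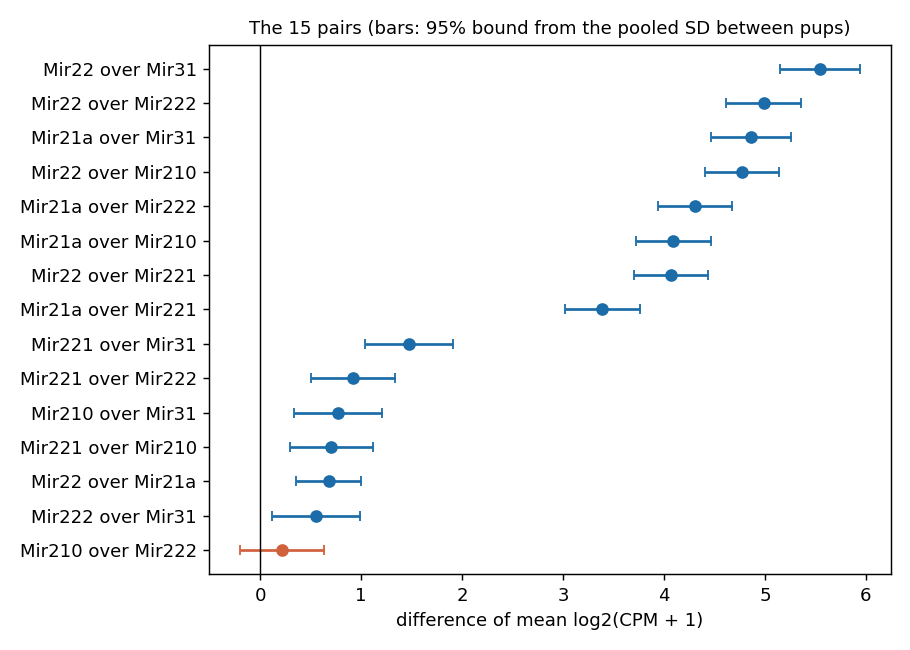
Difference of mean log2(CPM + 1) for the 15 pairs of members, with 95% bounds from the pooled SD between pups. The pair in orange, Mir210 over Mir222, reaches across 0, and the 14 pairs in blue do not.

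Pup 2 was then compared with pup 1. The exact two-sided binomial test, given both own-strand totals and adjusted by Benjamini-Hochberg over 413 genes, compares these 2 libraries and measures counting error only. It called 4 of the 6 members, all higher in pup 2, where 40.9% of all tested genes were called (25.7% higher, 15.3% lower). All 6 members have at least 500 counts in each pup, and of the 186 genes with that depth 126 (67.7%) were called. The members' count thus lies near the share for genes of such depth. Their median log2 ratio was 0.19, against 0.04 over all tested genes.

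Mir21a had the highest log2 ratio of the 6, 0.23 (1.17-fold, adjusted p = 1.0e-43). Mir210 followed at 0.21 (1.15-fold, adjusted p = 0.0061), then Mir222 at 0.20 (1.14-fold, adjusted p = 0.019) and Mir22 at 0.19 (1.14-fold, adjusted p = 2.6e-50). The ratios of these 4 genes were close to each other although their depth differed by over an order of magnitude. Between 41.2% and 49.4% of the 352 detected genes had a larger absolute log2 ratio than these members. None of the 6 differed by 1.5-fold or more, whereas 7.75% of tested genes were called and did so.

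Mir221 had a log2 ratio of -0.10 (adjusted p = 0.13) and Mir31 of -0.13 (adjusted p = 0.24), and neither was called. Scaling decides the calls within the seed pair. With TMM scaling, which lowers all ratios by 0.04, Mir221 was called lower in pup 2 (log2 ratio -0.14, adjusted p = 0.022) and Mir222 was not called (0.15, adjusted p = 0.077). DESeq2 size factors gave the same calls.

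Ratios between members do not depend on the scaling. Mir22 was 31.9-fold above Mir222 in pup 1 and 31.8-fold in pup 2, and 27.6-fold and 27.3-fold above Mir210. Against Mir221 it was 15.2-fold higher in pup 1 and 18.6-fold in pup 2, and against Mir31 41.9-fold and 52.5-fold. Mir221 was 2.75-fold and 2.82-fold above Mir31. In these 2 libraries Mir22, Mir222 and Mir210 kept nearly the same proportions, and Mir221 and Mir31 did so with each other; these ratios were given as a description with no test.

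**Figure D3:**
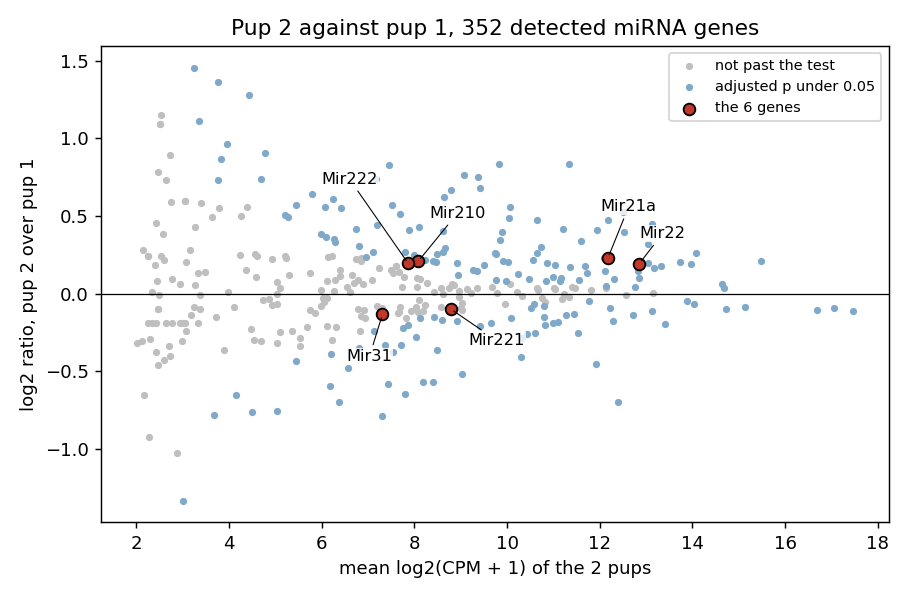
Log2 ratio of pup 2 over pup 1 against mean log2(CPM + 1) for the 352 detected genes, with genes past the adjusted threshold in blue and the 6 members in red. Mir22, Mir21a, Mir210 and Mir222 lie between 0.19 and 0.23, and Mir221 and Mir31 at -0.10 and -0.13.

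The genes whose levels lay nearest to each member over both pups were found by Euclidean distance in log2(CPM + 1), a measure of likeness over only 2 libraries. Nearest to Mir22 were Mir30d (7270 CPM ± 509, SD, n = 2, distance 0.05) and Mir382 (distance 0.07). Nearest to Mir21a were Mir125a (4454 CPM ± 324, distance 0.10) and Mir598 (0.13). Mir543 (0.11) and Mir203 (0.12) were nearest to Mir221, and Mir668 (0.10) and Mir190a (0.13) to Mir222. Mir669o (0.08) and Mir218-2 (0.09) were nearest to Mir210, and Mir363 (0.03) and Mir331 (0.16) to Mir31.

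Other miRNA genes reported in injury, inflammation, hypoxia or cell stress gave a second frame for the levels. Of 20 listed symbols 19 were measured, and 18 of these were detected. Mir22 and Mir21a were exceeded by 2 of them, Mir181c (9142 CPM ± 8.98, SD, n = 2) and Mir322 (8465 CPM ± 1318), a miRNA of cell cycle exit. Mir221 was exceeded by 8 of them, and Mir31 lay above 10. Mir107, another miRNA reported to respond to hypoxia, stood at 2797 CPM ± 183 (SD, n = 2), above Mir210 in both pups.

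Within that list, Mir132, induced by neuronal activity through CREB, stood at 1602 CPM ± 205 (SD, n = 2), and its cluster partner Mir212 at 100.2 CPM ± 5.86. The p53 targets Mir34c and Mir34a stood at 852 CPM ± 108 and 648 CPM ± 12.5. The inflammation genes were lower than Mir21a in both pups: Mir223 reached 186 CPM ± 51.5, Mir146 139 CPM ± 18.4 and Mir155 122 CPM ± 9.33. Mir223 lay below Mir31 in pup 1 and above it in pup 2. Mir146b had 10 counts in pup 1 and 14 in pup 2.

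Of the 18 listed genes that entered the test between pups, 9 were called higher and 1 lower in pup 2, where 25.7% of all tested genes were called higher and 15.3% lower. Their median log2 ratio was 0.26, against 0.04 over all tested genes. Mir205 (log2 ratio 1.28, adjusted p = 7.9e-07, exact binomial test) and Mir214 (0.67, adjusted p = 2.4e-36) were among the higher ones, and Mir107 (-0.13, adjusted p = 8.9e-10) was the lower one. Mir155 (-0.16, adjusted p = 0.23) was not called. The called genes Mir146, Mir223, Mir199a-2, Mir214, Mir486 and Mir205 are also in the marker lists below. The calls of this list and of the marker lists are therefore not separate observations.

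**Figure D4:**
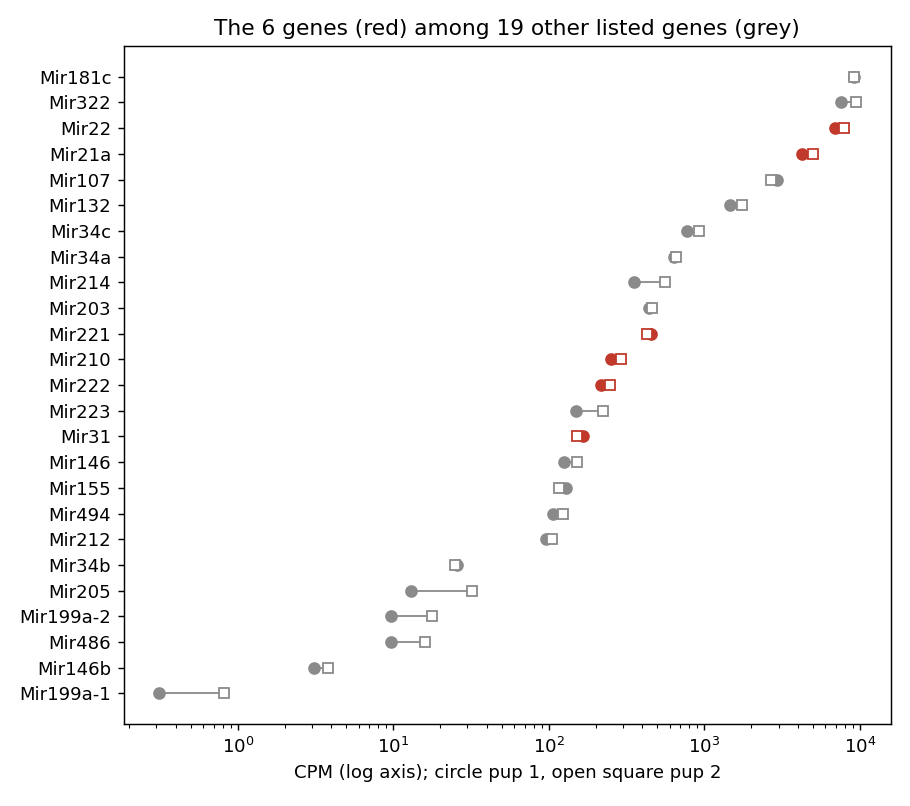
CPM on a log axis of the 6 members (red) and of 19 other measured genes reported in injury, inflammation, hypoxia or stress (grey), with circles for pup 1 and open squares for pup 2. Genes are ordered by the mean of both pups, by which Mir181c and Mir322 stand above Mir22 and Mir21a, and the other 4 members lie between Mir203 and Mir146.

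Several members are made in cells other than neurons and glia, so markers of such cells were read in the same libraries. Fewer cells of a type and less RNA per cell cannot be told apart in bulk tissue. The calls below stand beside a background of 40.9% of all tested genes called (25.7% higher, 15.3% lower), and of 67.7% where both pups had 500 counts or more. Endothelial Mir126a stood at 26923 CPM ± 1294 (SD, n = 2) with a log2 ratio of -0.10 (adjusted p = 3.7e-47, exact binomial test). The 6 genes of smooth muscle and mesenchyme took 1.07% (pup 1) and 1.14% (pup 2) of the own-strand counts, with 4 of 5 tested genes called higher in pup 2 and none lower. The most abundant of them, Mir143, was called at a log2 ratio of only 0.04 (adjusted p = 0.0041, exact binomial test). TMM scaling lowers all ratios by about as much. Mir145a had a log2 ratio of -0.12 and was not called. Of the 5 measured genes of white blood cells and microglia, which held 0.0617% and 0.0690%, 4 were tested and 2 called higher. Among those was Mir223 (log2 ratio 0.57, adjusted p = 1.6e-11, exact binomial test), whereas Mir150 (-0.09) and Mir155 (-0.16) were not called. Mir142b had 0 own-strand counts in both pups, with 1076 and 1436 counts on the opposite strand. The share of this list holds neither those opposite-strand counts nor Mir142, which had no row. The 3 genes of red blood cell precursors held 0.0137% and 0.0168%, with 2 called higher. Mir144 of that list had a log2 ratio of -0.32 and was not called (adjusted p = 0.20, exact binomial test). The 3 epithelial genes held 0.0460% and 0.0501%, with 1 called higher. Of the muscle genes Mir206 (85.6 CPM ± 23.0, SD, n = 2) was called higher and Mir1a-1 had 0 counts. Hepatocyte Mir122 (84.2 CPM ± 28.3) was called lower in pup 2. Mir1a-1, Mir199a-1 and Mir199a-2 are named as numbered gene copies, and multimapping reads are counted to no gene. Their counts, and the smooth muscle and mesenchyme share, can therefore miss reads.

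The 8 measured neuronal genes took 2.00% (pup 1) and 2.30% (pup 2) of the own-strand counts, with 4 of 7 tested genes called higher. Mir137 led in level (16076 CPM ± 1484, SD, n = 2, log2 ratio 0.19). Only 5 of the 8 were detected: Mir9-2 had 3 and 7 counts, Mir124a-2 4 and 3, and Mir124a-3 7 and 10. Mir9-1 had no row, and multimapping reads are counted to no gene. The share can therefore miss reads of neuronal miRNAs with several gene copies. Both oligodendrocyte genes were called higher. Neuronal Mir137 stood at 2.17 times the CPM of Mir22. The part of any of these cell types in the higher Mir21a, Mir22, Mir210 and Mir222 of pup 2 was not tested.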

How the data were processed

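Small RNA libraries of 2 newborn neural tubes were analysed as 1 group. The deposited tables hold raw counts made by the authors for each miRNA gene: on its own strand, on the opposite strand and on both. Per the deposited text, reads were placed on mm10 with GENCODE M4 as annotation, the aligner being not given in the sources used here, nor the counter. Own-strand counts were used, and rows naming no gene (unmapped, multimapping, outside features) stayed out of totals. Symbols and positions came from GENCODE M21 (same build) by Ensembl identifier, for 1894 of 1973 genes. Hairpin composition and shared stretches were computed from RefSeq and GENCODE sequences.

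CPM is the count per 1000000 own-strand counts; 1 count is worth 0.311 (pup 1) or 0.273 CPM (pup 2). Log2 ratios had 0.5 added to each count. Pups were compared with an exact binomial test on genes with at least 10 counts summed, called at an adjusted p under 0.05. The test was tried on simulated data with known folds and counting error only, so that trial does not cover other differences between pups. The pups were littermates, so p-values measure the difference between these 2 libraries. The members, lists and tests were chosen with earlier results of these data known. Genes named are the members, the 2 nearest genes of each, seed partners, and genes of the injury and marker lists; Mir21b was added after the data were seen, as was the comparison over genes with at least 500 counts. Of the listed symbols, Mir424, Mir142 and Mir9-1 had no row of their own and were not analysed here. Alternatives were TMM (edgeR 4.0.16) and DESeq2 1.42.0 scaling, other minimums and pseudocounts, either-strand counts, totals without the most abundant gene and leaving out each pup. Scripts ran in R 4.3.3 and Python 3.11.15 with scipy 1.17.1.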

Additional observations from a re-analysis of the deposited data

How the results depend on the processing

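Alternatives gave 104 values. Of these, 91 stayed on the same side of the threshold, within the SD between pups or, for counts of genes, within 1.5 times the main count. That count tolerance covers the 5 members called without the most abundant gene, and the 4 called with TMM or DESeq2 scaling, which are not the same 4. The 14 that leave out a pup could not move beyond the SD by construction; without replicate 1 or 2 the means ran from 6925 to 7919 CPM (Mir22), 4271 to 5003 (Mir21a), 425 to 455 (Mir221), 217 to 249 (Mir222), 251 to 290 (Mir210) and 151 to 165 (Mir31), and the members' share from 1.23 to 1.40%. Without the most abundant gene, Mir10b, the smaller total raised the means to 9054 CPM (Mir22), 5656 (Mir21a), 538 (Mir221), 284 (Mir222), 330 (Mir210) and 193 (Mir31) and the share to 1.61%. With that total Mir221 was called lower in pup 2 (log2 ratio -0.12, adjusted p = 0.048, exact binomial test). Requiring 1.5-fold left 0 of the 4 called members by construction; at an unadjusted p under 0.05 the exact binomial test without that rule has the same 4. Among the 6 members, TMM and DESeq2 scaling changed the calls of Mir221 and Mir222 only. Of the 15 pairs, 14 differed in level under each of the 6 alternatives run for pairs (TMM, DESeq2, both pseudocounts, 1 SD pooled over all detected genes, either-strand counts). No sign changed for any member. No paired comparison of conditions was possible because the 2 pups form 1 group. Ratios of members within each pup were given with no test. Mir31, with 532 and 552 counts, is the member with the largest relative counting error.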
